A study of Mus musculus with 2 samples.

Results

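The genes described here are 49 actin cytoskeleton genes, chosen by name from a list of actins, Arp2/3 subunits, monomer-binding, severing, capping and crosslinking proteins, myosin II chains, tropomyosins, nucleation promoters, membrane linkers and the SRF axis. All 49 were found among the 34745 genes of the deposited expression table, and the choice rule used no measured value, although the list was drawn up with earlier results of these data known. They were sorted into 11 roles. Diap1 and Mkl1 are older symbols, which RefSeq lists as Diaph1 and Mrtfa.

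Actin monomers assemble into polar filaments that push the cell membrane forward, and myosin II pulls on the same filaments. The Arp2/3 complex starts branches on existing filaments, formins start straight ones, and cofilin, profilin, thymosins and capping proteins set how fast monomers are added and returned. SRF with its coactivator MRTF-A (the product of Mkl1), which is held by free actin monomers, drives transcription of many of these genes. Monocytes and other myeloid cells rely on this system for migration, adhesion and phagocytosis, and Actb is widely used as a control gene in PCR and blots.

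The libraries came from monocytic myeloid-derived suppressor cells (M-MDSC), CD11b+Ly6G-Ly6C high cells which were induced from bone marrow of mice aged 6 to 8 weeks for 7 days and separated by flow cytometry. CHBP- M-MDSC were induced with the growth factor GM-CSF (50 ng/ml) alone, and CHBP+ M-MDSC with GM-CSF plus CHBP, a cyclic peptide made from the helix B surface of erythropoietin, whose dose the sources give differently. The strain is labelled C57BL/6 in the CHBP- sample and C57BL/7 in the CHBP+ sample, while the culture description names C57/B6 mice for both, and no genetic change is given for either. Each condition was sequenced as 1 library, so no value below has a replicate error and no test between conditions was possible.

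Reads counted on genes numbered 16484504 in CHBP- and 16280466 in CHBP+ M-MDSC, and a gene with no read could still hold up to 0.182 and 0.184 CPM (counts scaled to the library total), the level of 3 reads. Markers of the labelled cell type were present in both libraries, at widely differing levels. Ly6c2 had 56.9 FPKM in CHBP- and 34.0 FPKM in CHBP+ M-MDSC, and Csf1r had 113 and 126 FPKM. Itgam, which encodes CD11b, had 157 and 232 FPKM in the first of its 2 entries and 100 and 153 FPKM in the second. Ly6c2 was at least 1.5-fold lower in CHBP+ M-MDSC, and the second Itgam entry at least 1.5-fold higher. Of the other monocytic markers, Cd14 had 206 and 179 FPKM, Fcgr1 10.2 and 8.42, Ly6c1 3.70 and 2.91, and Ccr2 3.29 and 3.84. Ly6g, which marks granulocytes, had 2.19 and 2.12 FPKM, and no T cell marker exceeded 0.78 FPKM. All 4 erythroid markers were lower in CHBP+ M-MDSC, with a summed level of 1276 FPKM in CHBP- and 581 FPKM in CHBP+ M-MDSC. Of 8 granulocyte markers 7 were lower, with sums of 2012 and 1452 FPKM, and all 3 B cell markers were lower, with sums of 25.8 and 17.0 FPKM. Of 5 mast cell and basophil markers 3 were lower and 2 higher, with sums of 203 and 178 FPKM. Of 4 megakaryocyte and platelet markers 3 were lower and 1 higher, with sums of 384 and 318 FPKM. Of 4 dendritic cell markers that reached 1 FPKM, 3 were lower and 1 higher. The whole dendritic cell list summed to 232 and 240 FPKM. The part of these cells in the actin gene values was not tested, and in bulk RNA fewer cells of a type cannot be told apart from less RNA per cell.

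Between the libraries, 48 of the 49 actin cytoskeleton genes differed by less than 1.5-fold. The FPKM of a gene is its read count scaled to gene length and to the library, and the log2 ratio used throughout is the log2 of (FPKM in CHBP+ + 1) over (FPKM in CHBP- + 1), so values below 0 are lower in CHBP+ M-MDSC. All 49 genes reached 1 FPKM, the level that 10948 genes of the table reached in at least one library. Actb alone passed the 1.5-fold threshold downward, and 0 of the 49 passed it upward. Among all 10948 genes, 2.89% were at least 1.5-fold lower and 3.42% at least 1.5-fold higher. At 2-fold, 0 of the 49 passed in either direction, and 0.42% of all genes were lower and 0.776% higher. The median log2 ratio was -0.07 over the 49 genes and -0.03 over all genes kept. The 49 ranged from -0.72 for Actb to 0.56 for Flna, with 27 below 0 and 22 above 0. Among all genes kept, 53.7% were below 0, so this split is close to that of the whole table. These directions are relative to the total of counted reads. When the libraries were scaled to Actb instead, 26 of the 49 changed sign. Since Actb has the lowest ratio of the 49, that scaling puts every other member above 0 by construction. It is no test of their directions.

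Intervals of log2 ratios, CPM ratios and shares of counted reads are 95% Clopper-Pearson intervals on the read counts. Those of the Actb and Actg1 odds ratio and of Actb reads per control read are exact 95% intervals of the conditional odds ratio. Both kinds cover counting error only, and reads are not independent molecules. For 24 of the 49 genes the interval of the log2 ratio lay below 0, and for 18 it lay above 0. The same held for 31% and 27.9% of all genes kept, so at this depth small ratios exceeded counting error throughout the table. The genes nearest the threshold on its inner side were Flna at 0.56, Myl12a at -0.48, Tmsb10 at -0.47, Myl6 at -0.42 and Cfl1 at -0.42.

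**Figure D1:**
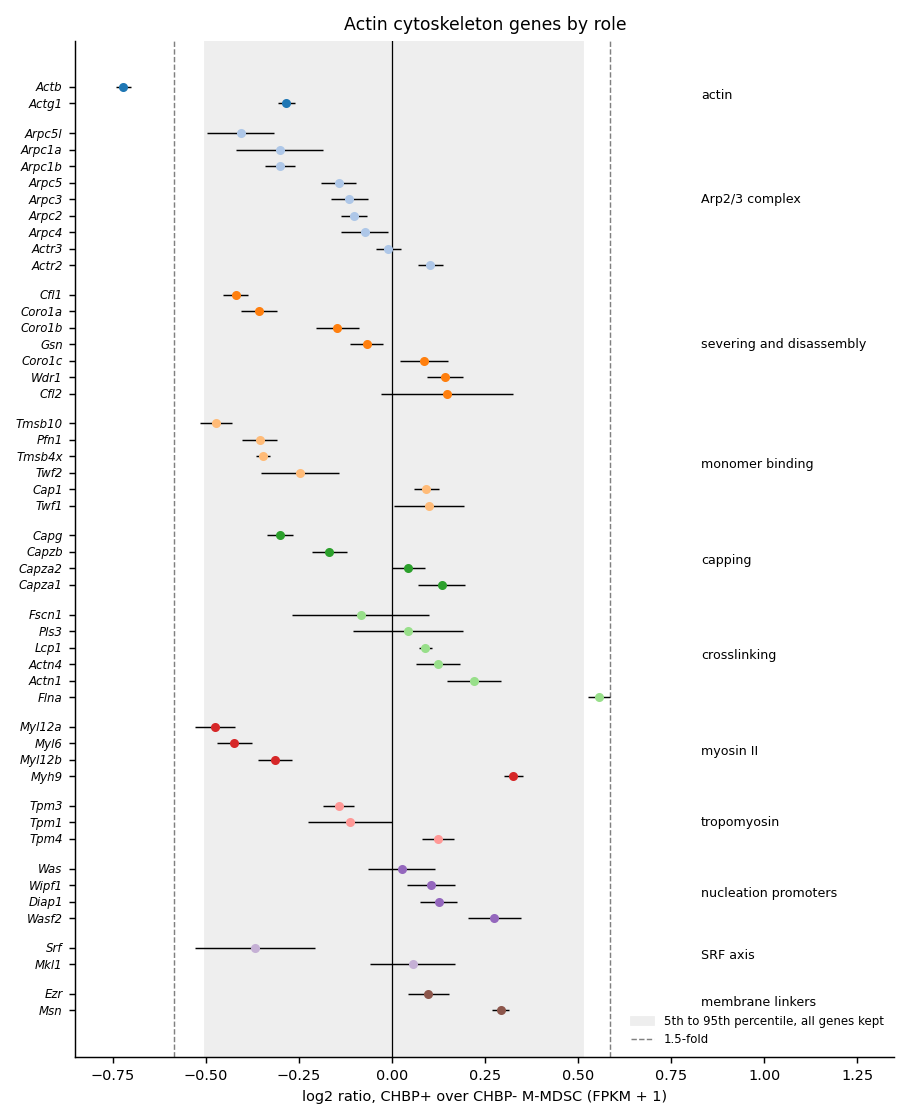
Log2 ratio of FPKM + 1 in CHBP+ over CHBP- M-MDSC (x axis) for each of the 49 genes (points, with 95% counting intervals as bars), grouped by role. The grey band spans the 5th to 95th percentile of all genes kept (-0.50 to 0.51) and the dashed lines mark 1.5-fold: Actb at -0.72 lies beyond the line and Flna at 0.56 just inside it.

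The 49 genes together held 524341 reads in CHBP- and 481742 reads in CHBP+ M-MDSC. That was 3.18% of counted reads (interval 3.17 to 3.19) in CHBP- and 2.96% (2.95 to 2.97) in CHBP+ M-MDSC. In raw reads, Actb made up 53.6% of the net difference, in which members with more reads in CHBP+ M-MDSC offset members with fewer. This percentage is not scaled to the library totals. Without Actb the shares were 2.84% and 2.75%.

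Actb, which encodes the cytoplasmic beta-actin, gave the largest ratio in either direction of the 49 genes. It lies on chromosome 5 from 142903115 to 142906754 (GRCm38). It had 56878 reads in CHBP- and 34046 reads in CHBP+ M-MDSC (585 and 354 FPKM). The log2 ratio of Actb was -0.72 (counting interval -0.74 to -0.70), and its CPM fell by 39.4%. Actb took 0.345% of counted reads in CHBP- and 0.209% in CHBP+ M-MDSC. Among the 208 most read genes (10000 reads or more in a library), which include 15 of the actin cytoskeleton genes, Actb had the third lowest log2 ratio, after the globin gene Hbb-bs (-1.73) and Ly6e (-0.95).

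Actg1, the gamma-actin gene on chromosome 11 (120345690 to 120348542), encodes a protein that differs from beta-actin at only a few residues. It had 33214 reads in CHBP- and 26939 in CHBP+ M-MDSC (323 and 266 FPKM), for a log2 ratio of -0.28 (-0.31 to -0.26). Both cytoplasmic actins were thus lower in the CHBP+ library, Actb by more. Actb held 63.1% of the reads of the pair in CHBP- and 55.8% in CHBP+ M-MDSC, an odds ratio of 0.738 (counting interval 0.723 to 0.754). How the counting treated reads shared between these near-identical genes is not given in the sources used here. Of their close copies, Actg-ps1 had 55 and 44 reads and Actbl2 had no read.

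Since Actb is a usual control gene, it was set against 12 others. None of the 12 passed the 1.5-fold threshold, and their log2 ratios ran from -0.34 to 0.01 with a median of -0.17, 10 of them below 0. For each read of Gapdh, a glycolytic enzyme, there were 8.43 reads of Actb in CHBP- and 5.65 in CHBP+ M-MDSC, a ratio of 0.670 (counting interval 0.646 to 0.696). Per read of the other controls the corresponding ratio ran from 0.597 for Tbp to 0.767 for Rplp0, with a median of 0.697 over all 12. Actb was therefore lower against each of the 12, whatever the scaling of the libraries. Ppia had only 173 and 144 reads, which gave the widest interval (0.573 to 0.904).

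**Figure D2:**
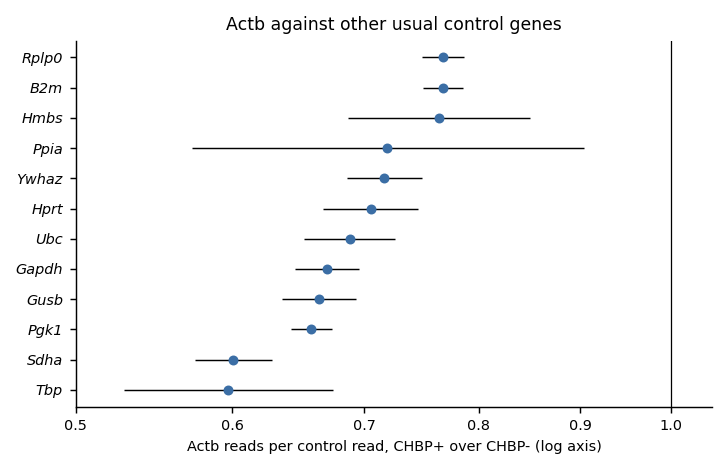
Reads of Actb per read of each of 12 usual control genes, as the value in CHBP+ over that in CHBP- M-MDSC (x axis, log scale), with 95% counting intervals as bars. All 12 points lie left of 1, from 0.597 (Tbp) to 0.767 (Rplp0).

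Srf, the transcription factor that binds CArG boxes, had 580 reads in CHBP- and 429 in CHBP+ M-MDSC (8.60 and 6.44 FPKM), and the log2 ratio was -0.37 (-0.53 to -0.21), short of the threshold. Mkl1, its actin-regulated coactivator, had 896 and 926 reads (5.67 and 5.93 FPKM), for a log2 ratio of 0.06 and a counting interval of -0.06 to 0.17 that holds 0. Of 11 further SRF partners and targets that reached 1 FPKM, 0 passed the 1.5-fold threshold, with 7 above 0 and 4 below, from Junb at -0.30 to Mkl2 at 0.46.

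The CArG box is the sequence that SRF recognises, and each one found in the promoters of the set is shown. RefSeq promoter windows (300 bases, from 250 before to 50 after the start, GRCm38.p6) were matched for 44 of the 49 genes; the others are Actb, Arpc5l, Coro1b, Diap1 and Twf2. The box, which reads the same way on both strands, was found in 4 of the 44 genes (9.09%) and in 488 of all 27025 genes with a window (1.81%). It is given below in capitals, 5′ to 3′ along the gene, with up to 10 bases on each side. That of Arpc4 stands at the edge of its window, so only the bases after it are shown.
Actg1, chr11:120348566-120348595, minus strand: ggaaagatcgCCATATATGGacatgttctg
Arpc4, chr6:113377863-113377882, plus strand: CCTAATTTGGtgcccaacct
Myl6, chr10:128493040-128493069, minus strand: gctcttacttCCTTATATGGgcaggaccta
Srf, chr17:46556205-46556234, minus strand: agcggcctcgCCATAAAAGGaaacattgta
Srf, chr17:46556225-46556254, minus strand: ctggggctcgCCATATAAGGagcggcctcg
Between the end of the box and the start lay 80 bases in Actg1, 240 in Arpc4, 40 in Myl6, and 52 and 72 in Srf. The 44 genes had 57 windows, as a gene can have more than 1 start. For Myl6 this start lies inside the deposited span of the gene (128490860 to 128493875), not at its 5′ end. The 4 genes that hold a box had log2 ratios of -0.28 (Actg1), -0.07 (Arpc4), -0.42 (Myl6) and -0.37 (Srf). All 4 were below 0, as were 27 of the 49 genes and 53.7% of all genes kept. A match to the box is a description of the sequence and not a binding site, and no match says only that these letters are absent from the window.

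Monomer-binding proteins included the most abundant transcript of the 49 by FPKM. Tmsb4x, which encodes thymosin beta 4, the main actin-sequestering peptide, had 47288 reads in CHBP- and 36745 in CHBP+ M-MDSC (1366 and 1075 FPKM), for a log2 ratio of -0.35 (-0.37 to -0.33). Its paralog Tmsb10 had 10901 and 7749 reads, for a log2 ratio of -0.47. Pfn1, whose product profilin 1 feeds monomers to growing ends, had 119 and 93.2 FPKM, a log2 ratio of -0.35. These 3 small-protein genes were all below 0, while the larger binding proteins spread on both sides of 0. Their longest GENCODE M1 transcripts are short, at 864 (Tmsb4x), 690 (Tmsb10) and 861 bases (Pfn1). With the trend on M1 transcript length removed, the log2 ratios of these 3 genes were -0.07, -0.17 and -0.08. Cap1, which helps released monomers to exchange their nucleotide, had a log2 ratio of 0.09 and Twf1 of 0.10, whereas Twf2 had -0.25. Both Twf genes encode twinfilins, which bind monomers and filament ends.

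No gene of the Arp2/3 complex, the nucleator of branched networks, passed the threshold. Its 9 genes had a median log2 ratio of -0.11, with 8 below 0 and 1 above 0. The actin-related subunit genes stood highest: Actr2 had 14127 reads in CHBP- and 14998 in CHBP+ M-MDSC (log2 ratio 0.10, interval 0.07 to 0.14), and Actr3 had 14046 and 13780 (-0.01, interval -0.04 to 0.02). Arpc2, which with Arpc4 forms the core of the complex, had 304 and 283 FPKM (-0.10), and Arpc4 had 46.5 and 44.2 FPKM (-0.07). Arpc3 was at -0.11 and Arpc5 at -0.14. The alternative subunits Arpc1a and Arpc1b were both at -0.30. Arpc5l, the paralog of Arpc5, was lowest at -0.41 (-0.50 to -0.32), with 2094 reads in CHBP- and 1538 in CHBP+ M-MDSC. Arpc5l overlaps the ribosomal protein gene Rpl35, which itself had 5193 and 3076 reads, and Arpc1b overlaps Pdap1 (1636 and 1654 reads). With the median of all genes set to 0, Actr3 moved above 0. With the trend on M1 transcript length removed, Actr3 (0.04), Arpc2 (0.09), Arpc3 (0.16) and Arpc4 (0.01) were above 0 and the median of the 9 genes was 0.0081, so the direction of the group did not hold.

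The nucleation promoters and the formin all had log2 ratios above 0, within the threshold. Wasf2 (WAVE2), which activates Arp2/3 downstream of Rac, had 2666 reads in CHBP- and 3215 in CHBP+ M-MDSC, for a log2 ratio of 0.28 (0.20 to 0.35). Was, the hematopoietic activator mutated in Wiskott-Aldrich syndrome, had 1945 and 1957 reads (0.03, interval -0.06 to 0.12), and its partner Wipf1 was at 0.10. Diap1, which encodes a formin, had 5853 and 6326 reads (0.13). The interval lay above 0 for 3 of these 4 genes. With the trend on M1 length removed, Wipf1 (-0.06) and Diap1 (-0.12) were below 0, as they were with the trend on the FPKM length removed (-0.03 and -0.08).

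Severing and disassembly genes lay on both sides of 0, and none passed the threshold. Cfl1, which encodes the main cofilin of non-muscle cells, had 17393 reads in CHBP- and 12840 in CHBP+ M-MDSC (919 and 687 FPKM), for a log2 ratio of -0.42 (-0.45 to -0.39). Cfl2, the muscle cofilin, had 401 and 444 reads (0.15, interval -0.03 to 0.33). Wdr1, a cofilin cofactor, was at 0.14 and the calcium-dependent severing protein gene Gsn at -0.07. Of the coronins, which couple cofilin and Arp2/3, the hematopoietic Coro1a had 87.8 and 68.3 FPKM (-0.36), Coro1b was at -0.15 and Coro1c at 0.09. Coro1a overlaps Bola2, which had 413 and 222 reads.

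Capping protein genes lay on both sides of 0. Capg, a macrophage capping protein gene related to Gsn, had 15308 reads in CHBP- and 12268 in CHBP+ M-MDSC (226 and 183 FPKM), for a log2 ratio of -0.30 (-0.33 to -0.27). The alpha subunits of the heterodimeric capping protein were at 0.13 (Capza1) and 0.04 (Capza2), and the shared beta subunit Capzb was at -0.17.

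Crosslinkers held the highest value of the set. Flna, which encodes filamin A, a large protein that joins filaments into an orthogonal gel and ties them to integrins, lies on chromosome X from 74223461 to 74249820. It had 14637 reads in CHBP- and 21389 in CHBP+ M-MDSC (56.3 and 83.3 FPKM). The log2 ratio of Flna was 0.56 (0.53 to 0.59), short of the threshold of 0.58, and it ranked 8th highest among the 208 genes with at least 10000 reads. Its CPM was 1.48-fold that of CHBP- M-MDSC (interval 1.45 to 1.51). The alpha-actinin genes followed, Actn1 at 0.22 and Actn4 at 0.12. Lcp1, the leukocyte plastin and the most read of the 49 genes, had 58411 and 61433 reads (0.09, interval 0.07 to 0.11). Pls3 (493 and 505 reads) and the fascin gene Fscn1 (292 and 267 reads) were at 0.04 and -0.08, with intervals that hold 0.

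Myosin II genes differed by chain. Myh9, which encodes the main non-muscle myosin II heavy chain of blood cells, had 22858 reads in CHBP- and 28360 in CHBP+ M-MDSC (97.4 and 122 FPKM), for a log2 ratio of 0.33 (0.30 to 0.35), which was -0.04 with the M1 length trend removed. All 3 light chain genes lay on the other side. Myl6, the essential light chain, had 800.0 and 597 FPKM (-0.42), and the regulatory light chains Myl12a and Myl12b were at -0.48 and -0.31. No chain passed the threshold.

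Tropomyosins, which coat filaments and set which proteins reach them, stayed near 0. Tpm4 had 7963 reads in CHBP- and 8573 in CHBP+ M-MDSC (0.12), Tpm3 had 9531 and 8510 (-0.14), and Tpm1 had 664 and 587 (-0.11, with an interval that holds 0). A related entry of the table, Tpm3-rs7, had 3063 and 3185 reads, and Tpm3 and this entry together had 12594 and 11695.

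Membrane linkers were above 0. Msn, which encodes moesin, the main linker of filaments to the membrane in leukocytes, had 27352 reads in CHBP- and 33103 in CHBP+ M-MDSC (236 and 289 FPKM), for a log2 ratio of 0.29 (0.27 to 0.32). Its relative Ezr had 4935 and 5221 reads (0.10).

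By level, 43 of the 49 genes had at least 10 FPKM in each library. In CHBP- M-MDSC 18 genes reached 100 FPKM, and in CHBP+ M-MDSC 17 did. Tmsb4x, Cfl1, Myl6 and Actb led in CHBP- M-MDSC, all above 500 FPKM. In CHBP+ M-MDSC the leading genes came in the same order, but Actb was under 500 FPKM. Tpm1 was lowest in both libraries, at 2.44 and 2.18 FPKM. These levels depend on the gene length used for the FPKM. That length, recovered from reads and FPKM, was longer than the whole genomic span for 4 of the 49 genes (Actb, Actg1, Pfn1 and Tmsb10) and was 1 to 5.72 times the longest transcript of the GENCODE M1 annotation. Comparisons of level between genes therefore hold for the deposited lengths.

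**Figure D3:**
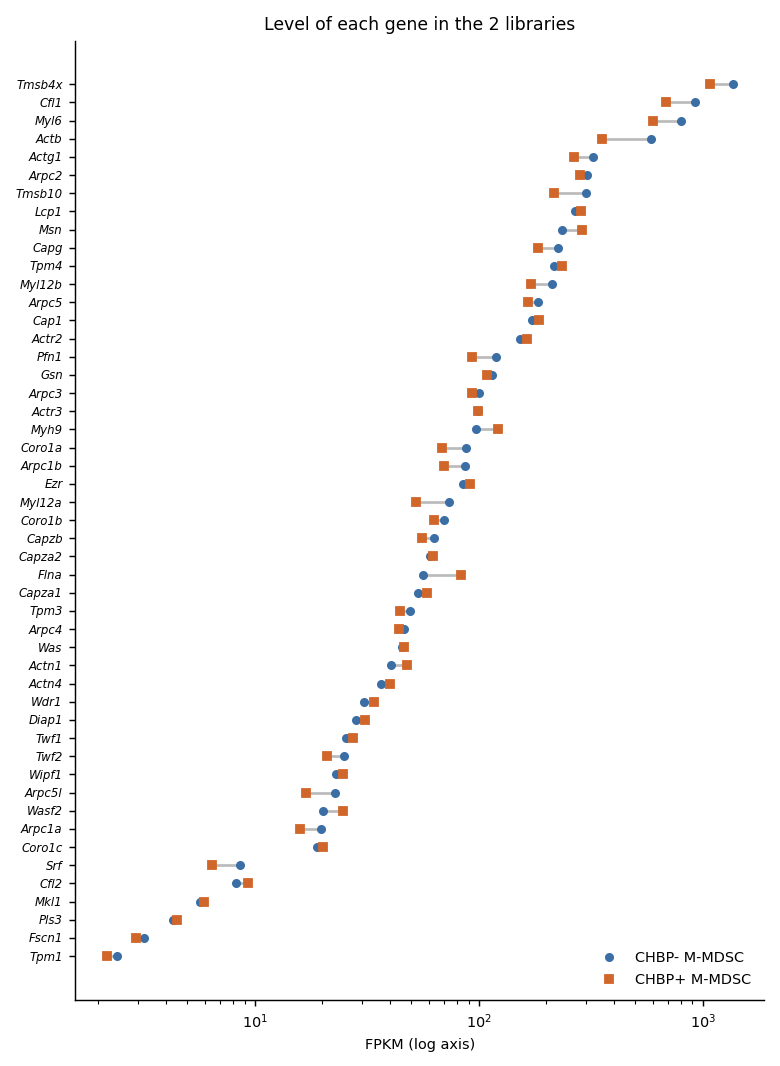
FPKM (x axis, log scale) of each of the 49 genes in CHBP- (circles) and CHBP+ M-MDSC (squares), 1 library each, ordered by level in CHBP- M-MDSC. The widest gaps between the paired points are at Actb (585 and 354 FPKM) and Flna (56.3 and 83.3 FPKM).

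Related genes of 1 family were compared as shares of their summed level per length, in 15 groups. In all 15 the same gene led in both libraries by FPKM. Cfl1 held 99.1% of the summed FPKM of Cfl1 and Cfl2 in CHBP- and 98.7% in CHBP+ M-MDSC. The near copy Dstn was not counted in this pair. It had 338 FPKM in CHBP- and 300 FPKM in CHBP+ M-MDSC, where Cfl1 had 919 and 687 FPKM. The share of Cfl1 therefore holds against Cfl2 only. Lcp1 held 98.4% and 98.5% of the plastin pair. Arpc5 held 89.0% and 90.8% against Arpc5l, and Arpc1b held 81.4% and 81.6% against Arpc1a. In these 4 groups 1 gene held most of the level in both libraries.

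The largest shift was in actin itself, where Actb went from 64.4% to 57.2% of the summed FPKM, a change of -7.23 percentage points. Twf1 went from 50.4% to 56.6% of the twinfilins, and Coro1a from 49.6% to 45.0% of the coronins. Capg went from 66.4% to 62.7% against Gsn. For close pairs the leading gene depended on the length: with reads divided by the longest M1 transcript, Actr2 held 41.0% and 42.9% against Actr3, where FPKM gave 60.4% and 62.3%. For the tropomyosins, Tpm4 held 80.7% and 83.5% by FPKM, but by M1 length Tpm3 led in CHBP- (50.3%) and Tpm4 in CHBP+ M-MDSC (51.5%). The direction of each shift named here was the same under both lengths. In a pair this holds by construction, since each gene keeps its length in both libraries. It is therefore no test of the direction in a pair.

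**Figure D4:**
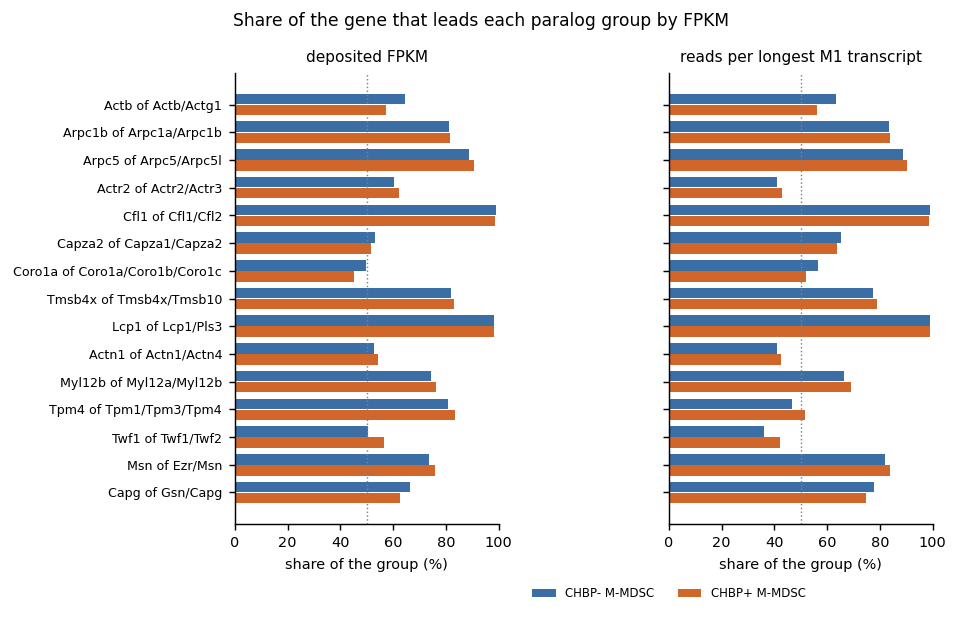
Share (x axis, percent) of the leading gene in each of 15 paralog groups in CHBP- and CHBP+ M-MDSC, by deposited FPKM (left) and by reads per longest M1 transcript (right); the dotted line marks 50%. Actb goes from 64.4% to 57.2% on the left and from 63.5% to 56.2% on the right, the widest change of a leading gene.

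Across the 49 genes the log2 ratio followed transcript length. All 18 genes whose longest M1 transcript was under 2 kb had a log2 ratio below 0, with a median of -0.31. Of 22 genes between 2 and 4 kb, 7 were below and 15 above 0, with a median of 0.09. Of 9 genes over 4 kb, 7 were above 0 and 2 below, the exceptions being Arpc5l and Srf, with a median of 0.10. All genes kept showed the same order: 86.1% of those under 2 kb, 58.9% of those between 2 and 4 kb and 17.0% of those over 4 kb were below 0, with medians of -0.26, -0.04 and 0.20. Spearman's rank correlation with M1 length was 0.709 over the 49 genes and 0.658 over 10508 genes kept, given as a description, since genes share both libraries. With the length behind the FPKM it was 0.404 and 0.478.

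Of the myosin II chains, the heavy chain and the light chains stood apart in length as in ratio, while the light chains did not follow length among themselves. The light chain transcripts measure 665 (Myl6), 1253 (Myl12b) and 1937 bases (Myl12a), and that of Myh9 measures 7433. Against a cubic trend fitted over all genes kept, Myh9 lay -0.01 from the trend value at its length. Flna, with a transcript of 8456 bases, had a trend value of 0.40 and lay 0.16 above it. Of the 49 genes, 24 lay above the trend and 25 below, with a median distance of -0.0034 on the log2 scale. A ratio with the trend removed equals the distance from the trend plus the median log2 ratio of the genes kept, which is below 0. Hence Capza2, Arpc5, Coro1b and Capzb lay just above the trend (by 0.0003 to 0.017) but were below 0 with it removed.

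Of the 49 genes, 5 (10.2%) lay more than 1 SD of all genes (0.26) below the trend and 0 more than 1 SD above it, against 9.65% and 9.45% of all 10508 genes. The 5 were Actb at -0.57, Arpc5l at -0.50, Srf at -0.45, Myl12a at -0.32 and Arpc1b at -0.29. Actb, with a transcript of 1920 bases, had a trend value of -0.16, and the similar length of Actg1 (1952 bases) gave -0.15 with a distance of -0.13. Among roles, both actins, both SRF axis genes and all 4 myosin II genes lay below the trend. Above it lay 6 of 9 Arp2/3 genes and 5 of 6 crosslinkers. Apart from the 5 genes named above, each of these lay within 1 SD of the trend, so many of these signs rest on small distances. The part of transcript length or RNA quality in these ratios was not tested further.

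**Figure D5:**
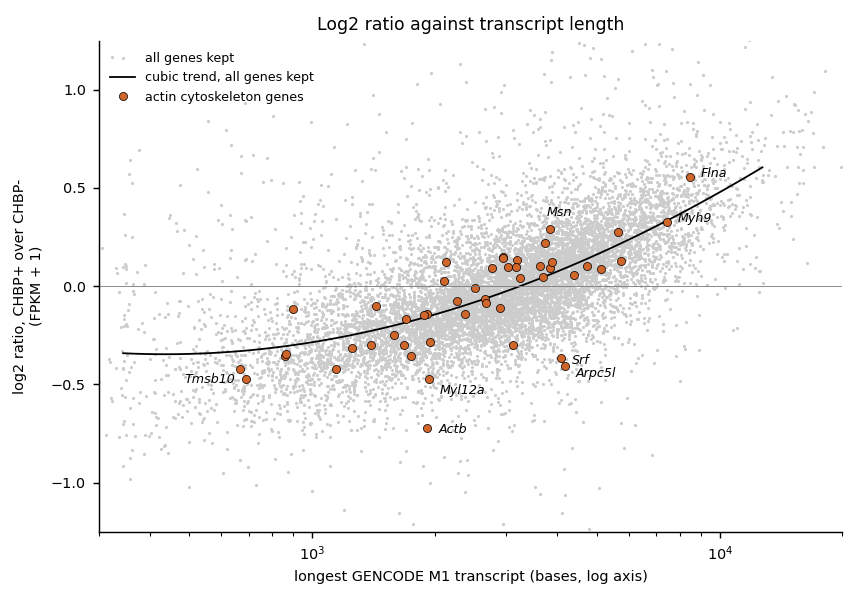
Log2 ratio of FPKM + 1 in CHBP+ over CHBP- M-MDSC (y axis) against the longest GENCODE M1 transcript in bases (x axis, log scale) for all genes kept (grey) and the 49 actin cytoskeleton genes (orange), with the cubic trend over all genes kept (line); 90 of 10508 genes lie outside the axes. The 18 actin cytoskeleton genes under 2 kb all lie below 0, and Actb lies 0.57 under the line.

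Other genes of the pathway were taken from further lists. None of 14 genes of the WAVE complex and related promoters passed the threshold, from Brk1 at -0.51 to A230046K03Rik, which RefSeq lists as Washc4, at 0.47. None of 8 formins did, from Diap2 at -0.31 to Daam1 at 0.52; Diap1 is among the 49. Of 7 unconventional and other myosins Myo5a alone passed the threshold, with 1944 and 3149 reads (0.63), and all 7 lay above 0, the lowest being Myo1g at 0.10. Their median transcript measures 5184 bases, 17.0% of all genes over 4 kb lay below 0, and the median of the 7 was -0.0027 with the M1 length trend removed.

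Muscle isoforms were scarce. Of 12 such genes only Acta2 (251 and 207 reads) and Mylk (132 and 206 reads) reached 1 FPKM, and 3 had no read in either library. Among 9 tubulins, the subunits of microtubules, 8 lay below 0 and Tuba1a was at least 1.5-fold lower, with 1553 reads in CHBP- and 801 in CHBP+ M-MDSC (-0.89, interval -1.01 to -0.78), while Tubb6 was highest at 0.03. The median tubulin transcript measures 1757 bases, a length class in which 86.1% of all genes lay below 0, and the median of the 9 was -0.20 with the M1 length trend removed.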

How the data were processed

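RNA of both samples was sequenced as single-end reads. Per the labels, the authors removed adapters, bases of quality under 20 at the 3′ end, reads shorter than 25 bases and ribosomal reads. The submitters' processing notes name HISAT2 2.0.4, Cufflinks 2.1.1 and Cuffdiff with GRCm38, whereas the methods of the study name TopHat2 with mm9, HT-seq and DESeq. The coordinates of all 49 genes overlapped the RefSeq genes of GRCm38. The authors deposited raw read counts and FPKM per gene, and 0 further columns held values of other samples. Fold changes of the authors were not used.

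From these values, log2 ratios of FPKM with a pseudocount of 1 were computed for genes with at least 1 FPKM in one library, in place of the study's DESeq test, since 1 library per condition leaves no replicate spread. This scale understates the change of low genes. Each gene at least 1.5-fold higher or lower was counted. Clopper-Pearson 95% intervals were computed on the counts, and exact conditional 95% intervals for odds ratios (Python 3.11.15, scipy 1.17.1, pandas 2.3.3, numpy 2.4.6, figures with matplotlib 3.10.9). The intervals of the CPM ratio were tested only on simulated counts that hold counting error alone. Such counts cannot show how the intervals cover the spread of real reads. The intervals of log2 ratios and odds ratios were not tested in this way. Transcript lengths came from GENCODE M1 and promoters from RefSeq on GRCm38.p6. Counting by strand is not given in the sources used here, and 11 of the 49 genes overlap another gene with at least 10 reads.

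Every member was reported. Of other lists, the control genes, each gene past the threshold, and the highest and lowest gene were named. Marker genes, genes with at least 10000 reads and near copies were named outside this rule. Some genes and lists are not reported here. The members and lists were chosen with earlier results of these data known. Alternatives were a pseudocount of 0.1, CPM from the counts, other filters, median centring, TMM (edgeR 4.0.16) and DESeq2 1.42.0 size factors in R 4.3.3, a fold of 2, removal of the trend with length, scaling to Actb, and leaving out overlapping members. Removal of the trend with M1 transcript length, shares by M1 length and the share without Actb were chosen after seeing the data.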

Additional observations from a re-analysis of the deposited data

How the results depend on the processing

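No paired analysis was possible because each condition has 1 library, and for the same reason no replicate could be left out. Of the 49 actin cytoskeleton genes, Actb alone was past the threshold as reported, and its log2 ratio did not reverse in direction. Scaling to Actb sets that ratio to 0 by construction. Reversals among the other genes of the table are not reported here. Over all genes, the numbers at least 1.5-fold higher and lower (374 and 316) became 665 and 571 with a pseudocount of 0.1, 218 and 209 at a minimum of 5 FPKM, and 208 and 124 with the trend on M1 transcript length removed. With CPM 609 were higher, and with the trend on the length behind the FPKM removed 202 were lower. At a fold of 2 the numbers were 85 and 46, and 0 of the 49 actin cytoskeleton genes were lower, where 1.5-fold gave 1 (Actb). With the median of all genes set to 0, 1 of the 49 (Flna) was higher, where the total gave 0.

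Scaled to Actb, which shifted the median of all genes to 0.59, 27 of the 49 were higher, 0 were lower and their median was 0.64. As Actb has the lowest ratio of the 49, no member could be lower under that scaling. Apart from that scaling, the log2 ratio of Actb ran from -0.76 with the FPKM length trend removed to -0.59 with the M1 length trend removed. Of the 49, 10 changed sign with the M1 length trend removed (Actr3, Arpc2, Arpc3 and Arpc4 to above 0, and Capza2, Coro1c, Myh9, Wipf1, Diap1 and Mkl1 to below 0), 8 with the FPKM length trend removed (Capza2, Coro1c, Wdr1, Lcp1, Pls3, Wipf1, Diap1 and Mkl1, all to below 0), 26 with scaling to Actb and 1 each with median centring and TMM. With the members and mitochondrial genes left out of the denominator, the members' share of reads was 3.43% in CHBP- and 3.19% in CHBP+ M-MDSC, where the total of counted reads gave 3.18% and 2.96%. Of the total of counted reads, the members without Actb took 2.84% and 2.75%. At this depth no difference from 0 was detectable for Cfl2, Pls3, Fscn1, Tpm1, Was, Actr3 and Mkl1, whose counting intervals hold 0.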
